A study of Mus musculus with 31 samples.

Results

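The collagen chain genes were taken as all mouse genes whose symbol is Col, a number, a and a number, which gave 44 of the 29267 genes in the deposited tables. They were read in 31 RNA libraries of strain 129/OG2. Untreated fibroblasts at passage 2, called MEF in the titles, gave 2 libraries. Embryonic stem cells (ESC) at passages 17 and 19 gave another 2. Cells under reprogramming by OKSM (the factors Oct4, Klf4, Sox2 and Myc) gave 24. Besides OKSM they had received Flag (read as the control virus) or Tet1CD, and they were kept with DMSO (taken as the vehicle), Vc (taken as vitamin C) or DKG until day 3 or day 8. Each of the 12 combinations had 2 libraries, numbered 0824 and 0826 like the MEF pair. Single libraries of fibroblasts kept for 3 days with DMSO, Vc or DKG completed the set, and the title of the last names 2DG where its treatment label reads DKG. OKSM was shared by all reprogramming groups, so no group isolates it from the virus. Without OKSM, culture time is matched at day 3 by the single fibroblast libraries only, and at day 8 by no group. The labels give no doses, do not say what Tet1CD or DKG stand for, and do not say that the reprogramming cells came from the MEF measured here.

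Collagens are secreted or membrane proteins in which 3 chains wind into a triple helix. Fibrillar collagens (types I, II, III, V, XI, XXIV and XXVII) build the fibers of connective tissue, type IV forms the network of basement membranes, and type VI forms beaded filaments around cells. The FACIT collagens attach to fibril surfaces, the multiplexins XV and XVIII are proteoglycans of the basement membrane zone, and the transmembrane types, such as XVII of the keratinocyte hemidesmosome, stay in the cell surface. Fibroblasts are a major source of type I collagen, and vitamin C is a cofactor of the prolyl hydroxylases that stabilise the helix. By class the 44 genes comprised 11 fibrillar, 9 FACIT, 6 type IV, 6 type VI, 4 transmembrane and 3 hexagonal-network genes, 2 multiplexins, the anchoring-fibril gene Col7a1, and Col26a1 with Col28a1.

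Library totals ran from 3953297 to 6818060 expected counts. Of the 44 genes, 41 passed the filter on low counts. Col9a1, Col13a1 and Col19a1 did not and were not tested. The ESC libraries stood apart from each other. The one titled 0822 held a summed 1741 TPM (a transcript level corrected for length and library size) of 12 fibroblast markers against 119.8 in the one titled 0819, while all 10 pluripotency markers were above 0 in both. The 2 numbers are swapped in the deposited file names, which leaves the passage of each library uncertain. In MEF, all 12 fibroblast markers were above 0 and summed to 4962 and 6082 TPM. All 11 macrophage markers were above 0 there too, at 768 and 3665 TPM. Within a day, libraries of the same number (0824 or 0826) deviated together. Each comparison is therefore given from the fit of 28 libraries with no pairing. Where the calls differ, it is also given from fits of the 26 libraries without the ESC pair. These were run with and without the number as a block within each day. The choice to leave out the ESC pair was made after seeing the data. The labels do not tie the numbers to separate animals or cultures. P-values therefore reflect library-to-library spread, possibly technical. In such bulk cultures fewer cells of a type and less RNA per cell cannot be told apart.

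Collagen transcripts were abundant in fibroblasts and scarcer at both days of reprogramming. The 44 genes held 1.36% and 1.47% of all TPM in the MEF libraries. The lowest, mean and highest shares were 0.16%, 0.285% and 0.36% at day 3 (n = 12), and 0.168%, 0.308% and 0.471% at day 8 (n = 12). No reprogramming library reached the MEF share. The single libraries of fibroblasts kept for 3 days without OKSM held 1.73% with DMSO, 1.93% with Vc and 1.65% with the medium labelled DKG. They were not tested. The ESC library titled 0822 held 0.49% and that titled 0819 held 0.0217%. At both days, each 0826 library lay above the 0824 library of its group.

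**Figure D1:**
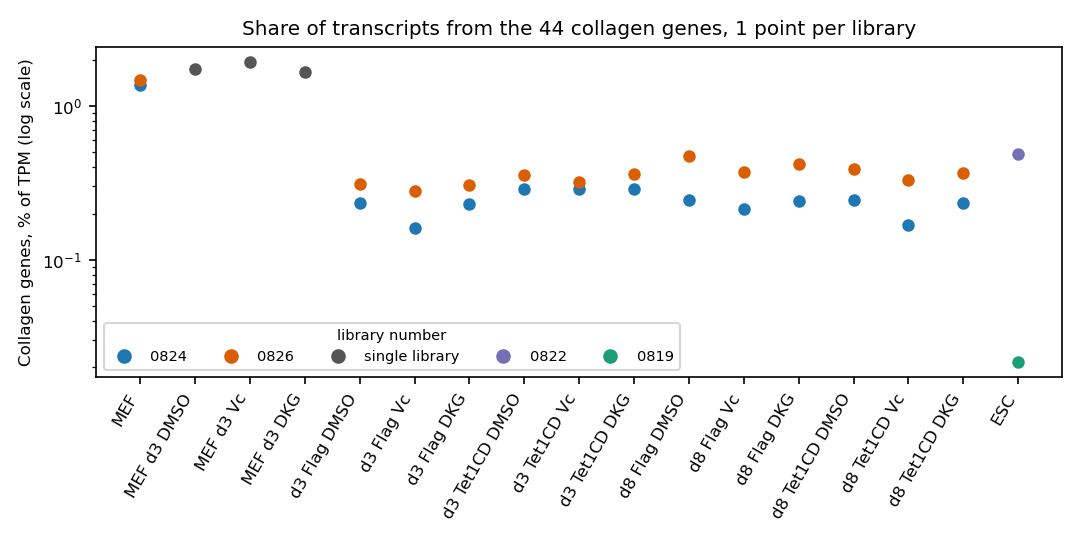
Share of all TPM held by the 44 collagen chain genes (log scale, percent), 1 point per library, by group on the horizontal axis and coloured by library number. MEF libraries lay at 1.36% and 1.47%, the reprogramming libraries between 0.16% and 0.471%, and the ESC pair at 0.49% and 0.0217%.

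The makeup of the collagen pool also differed between fibroblasts and reprogramming cells. In MEF the chains of type I collagen led, with mean levels of 4417 TPM for Col1a1 and 3375 for Col1a2, or 31.1% and 23.8% of collagen TPM. Col3a1 (type III) followed at 1422 TPM, then the type V chains Col5a2 at 786.4 and Col5a1 at 749.4. At day 3 the order was Col1a2 at 668.3, Col1a1 at 417.9, Col6a1 at 317.5, Col4a1 at 299.0 and Col4a2 at 251.4 TPM. Fibrillar genes held 75.9% and 78.2% of collagen TPM in MEF, 45.4% to 61.1% at day 3 and 40.5% to 53.4% at day 8. Type IV held 7.33% and 9.23% in MEF against 17.2% to 25.8% at day 3 and 17.7% to 23% at day 8. Type VI held 5.94% and 6.17% in MEF, 13.9% to 23.8% at day 3 and 18.1% to 27% at day 8. The ranges of MEF and reprogramming cells did not overlap in any of these 3 classes. The number of collagen genes at 1 TPM or more was 29 and 31 in MEF, 27 to 32 at day 3 and 31 to 36 at day 8. In the 0824 libraries the days overlapped, at 29 to 32 and then 31 to 33. In the 0826 libraries they did not, at 27 to 31 and then 33 to 36.

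**Figure D2:**
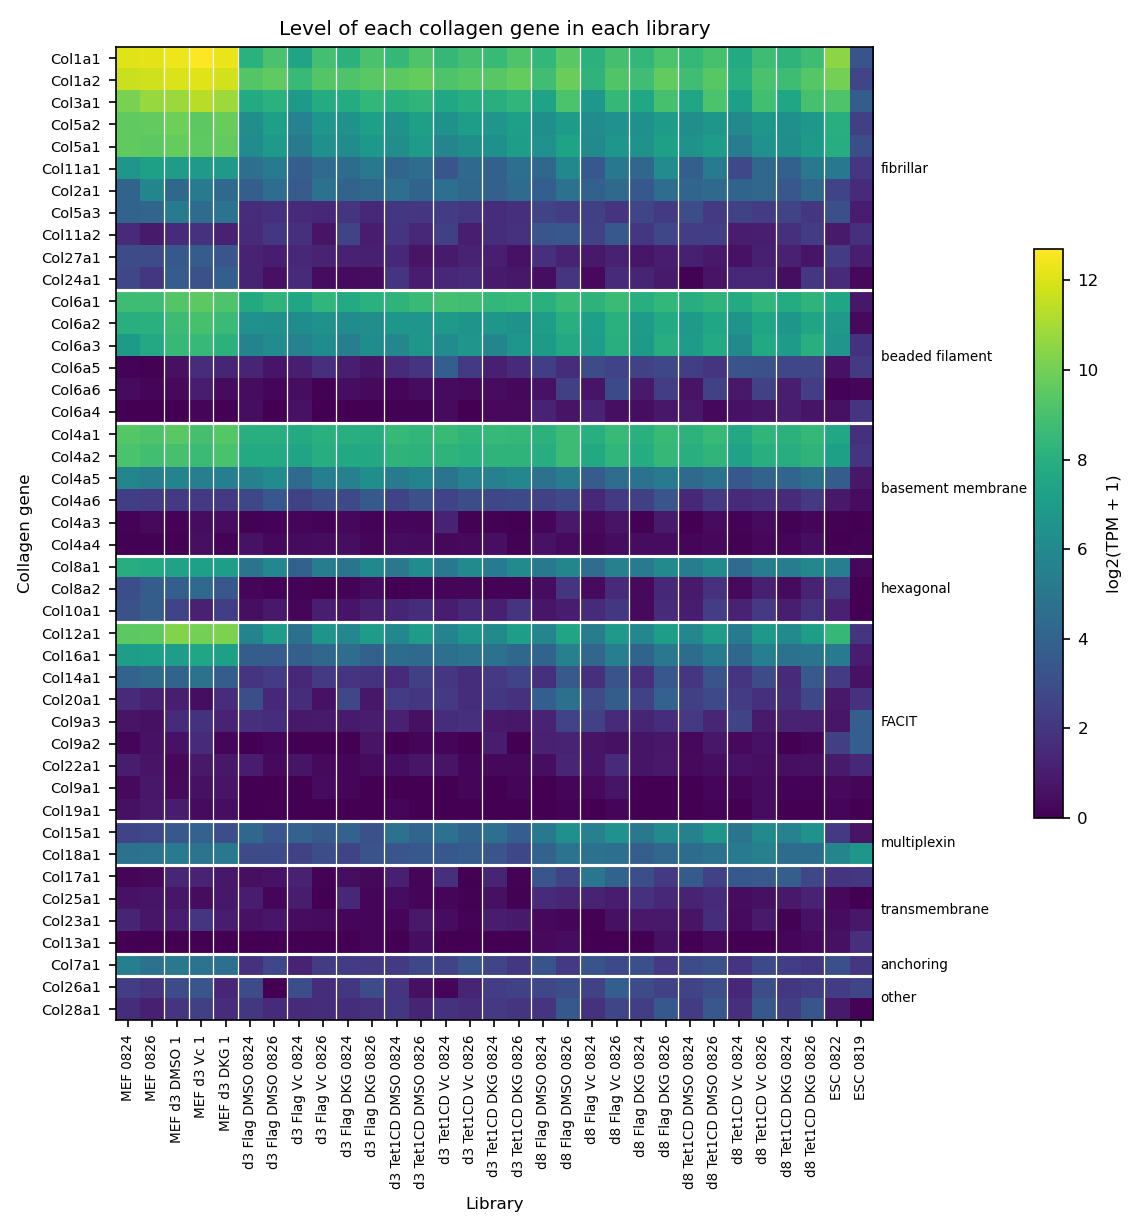
Level of each of the 44 genes (rows, by structural class) in each of the 31 libraries (columns), as log2(TPM + 1) in colour. The 5 fibroblast libraries on the left lie above the reprogramming libraries for most fibrillar genes, the ESC library titled 0819 is the lowest for Col1a1, Col1a2 and Col3a1, and Col15a1, Col17a1 and Col18a1 brighten from day 3 to day 8.

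Between untreated MEF and Flag DMSO cells of day 3, chains of several classes fell, with fibrillar chains the most numerous among them. Col1a1 stood at 4272 and 4562 TPM in MEF and at 277.2 and 529 in Flag DMSO cells, a log2 change of -3.62 ± 1.17 (SE, adjusted p = 0.0269). Its partner Col1a2 went from 3240 and 3510 to 634.4 and 759.6 TPM. Col5a1, a chain of the fibril-diameter regulator type V, went from 771.3 and 727.4 to 68.39 and 112.2 TPM (log2 change -3.37 ± 0.99, adjusted p = 0.0171). All 3 kept the groups well apart. In the 28-library fit 1 of 41 collagen genes rose and 10 fell at an adjusted p under 0.05, where 14.8% of all tested genes rose and 13.9% fell. The 10 were Col1a1, Col5a1, Col5a2, Col5a3, Col27a1, the hexagonal-network chains Col8a2 and Col10a1, the FACIT chain Col16a1, Col7a1 and Col18a1. The 1 that rose was Col6a5, a type VI chain with 2 and 1 counts in MEF and 24 and 15 in Flag DMSO cells. The median log2 change over the 41 was -1.43, against 0.04 over all tested genes.

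The count differed with the libraries in the fit, for a cause that was not tested. Without the ESC pair, 21 of 40 fell and 1 rose (18.5% and 18.5% of all tested genes), and with the block as well 23 fell and 4 rose (28.6% and 28.8%). The fit without the ESC pair and without the block added Col1a2 (log2 change -2.49 ± 0.46, adjusted p = 0.000593) and Col3a1 (-2.55 ± 0.75, 0.0133). It also added the FACIT chains Col12a1 (-3.35 ± 0.91, 0.0088) and Col14a1 (-2.52 ± 0.95, 0.046). The basement membrane chains Col4a1 (-1.43 ± 0.27, 0.000628) and Col4a2 (-1.4 ± 0.31, 0.0025) were added too, among others. With the block as well, the fibrillar chain Col24a1 also fell (log2 change -2.96, adjusted p = 1.74e-05). In the 28-library fit the count was 4 without the Flag DMSO library 0824 of day 3, 5 without its 0826 partner, and 22 without either ESC library. The fall was smallest among the called chains for Col6a1, the backbone chain of type VI, at 433.7 and 437.4 TPM in MEF and 207.9 and 300 in Flag DMSO cells (-0.95 ± 0.32 without the ESC pair, adjusted p = 0.0265). Over all 12 libraries of day 3, 21 of the 41 genes lay below both MEF libraries in CPM (counts scaled to library size) and 3 above, where 25.4% and 24.6% of all tested genes did. The 3 above were Col15a1, Col4a6 and Col6a5. In this comparison all 11 macrophage markers fell, and 5 of 12 fibroblast markers fell while 2 rose. The summed levels of 7 osteoblast markers were 1078 and 1546 TPM in MEF and 68.35 and 73.48 in Flag DMSO cells, and those of 7 muscle markers were 239.3 to 305.6 and 11.29 to 22.08. Of the members tested, 1 of 4 osteoblast markers fell and 1 rose, and 2 of 3 muscle markers fell. Their part in the result was not tested.

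From day 3 to day 8 more collagen genes rose than fell, in every class except type IV. Col17a1, the hemidesmosome collagen, had a lowest, median and highest level of 0, 0.405 and 2.26 TPM over the 12 libraries of day 3 and of 3.47, 9.85 and 30.74 at day 8, from 0 to 32 counts a library and then 34 to 373. Col15a1 stood at 7.88, 15.7 and 26.65 TPM and then at 28.6, 56.6 and 93.95. Col18a1, whose C-terminal fragment is endostatin, stood at 4.75, 7.65 and 12 TPM and then at 13.14, 22.5 and 44.86. The days did not overlap for these chains or for Col6a6, a type VI chain at 0.05, 0.275 and 0.39 and then 0.52, 2.5 and 6.3 TPM, from 1 to 9 counts a library and then 14 to 116. These were the 4 of 41 genes above in every library, against 1.65% of all tested genes, and 0 lay below, against 0.483%.

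In the fit, averaged over the 6 combinations of virus and medium, 16 of 41 genes rose and 2 fell, where 14.4% and 10.7% of all tested genes did. The median log2 change was 0.78 over the 41 and 0.01 over all tested genes. Col18a1 rose by a log2 change of 1.69 ± 0.15 (adjusted p = 1.11e-06), Col15a1 by 1.97 ± 0.27 (5.28e-05) and Col17a1 by 4.11 ± 0.5 (2.06e-05). Of the 6 type VI genes, 4 rose. Col6a3, the long chain of the common type VI trimer, had a median of 68.07 TPM at day 3 and 168.8 at day 8 (log2 change 1.43 ± 0.35, adjusted p = 0.00655). Col6a4, Col6a5 and Col6a6, which can take its place and lie in tandem on chromosome 9, rose by 3.23 ± 0.6, 1.47 ± 0.34 and 3.43 ± 0.56. Col6a4 stayed at 0 to 4 counts a library at day 3 and 3 to 14 at day 8. The other 9 that rose were Col5a3, Col7a1, Col8a2, Col11a2, Col20a1, Col22a1, Col25a1, Col26a1 and Col28a1, with log2 changes of 0.76 (Col22a1) to 3.2 (Col8a2, at 0 to 3 counts a library at day 3). Some of these rises came mostly from the 0826 libraries. Mean log2 differences within 0824 and within 0826 were -0.03 and 1.97 for Col11a2 and 0.22 and 2.19 for Col20a1. They were 0.21 and 2.02 for Col28a1 and 0.23 and 1.66 for Col26a1. Col15a1 (0.96 and 2.81), Col6a6 (1.01 and 4.07), Col8a2 (0.70 and 2.54) and Col25a1 (0.64 and 2.41) rose within both numbers, and more within 0826. Col5a3 (0.96 and 0.58), Col7a1 (1.16 and 0.28) and Col6a5 (1.54 and 0.91) leaned the other way.

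The 2 that fell were Col4a5 and Col4a6, minor type IV chains whose genes lie head to head on the X chromosome with 1308 bases between them. Col4a5 had a lowest, median and highest level of 20.72, 45.5 and 79.04 TPM at day 3 and 9.92, 23.4 and 38.56 at day 8 (log2 change -1.03 ± 0.27, adjusted p = 0.0105). Col4a6 had 4.7, 6.05 and 10.91 TPM and then 1.76, 3.35 and 9.01 (-1.06 ± 0.21, adjusted p = 0.00149). The days overlapped for both, but each was lower at day 8 in 12 of 12 pairs of the same number, virus and medium, as were 4.81% of all tested genes. Col4a1 and Col4a2, the common type IV chains, are also head to head, on chromosome 8, and did not pass the test in either direction. The remaining head-to-head pair, Col4a3 and Col4a4 on chromosome 1, did not pass it either and stayed low, at up to 1.37 TPM for Col4a3 and 0.54 for Col4a4 in reprogramming cells. Col1a1 had 169.1, 424.2 and 595.9 TPM at day 3 and 215, 387.8 and 701.4 at day 8, and it was higher at day 8 in 6 of 6 Flag pairs and lower in 6 of 6 Tet1CD pairs, as were 12.9% and 11.4% of all tested genes. Leaving out each library gave 15 to 21 calls. With the ESC pair left out and the block, 24 of 40 rose and 4 fell (26.8% and 27% of all tested genes), Col1a2 and Col5a2 joining those that fell at log2 changes of -0.34 and -0.17. Over the same days, 10 of 12 keratinocyte markers and 10 of 11 epithelial markers rose, and their summed levels went from 164.9 to 353.1 TPM up to 246.3 to 830.8 and from 56.57 to 85.81 up to 102.3 to 502.9. Osteoblast markers went from 43.81 to 83.99 TPM up to 88 to 473, with 3 of 4 tested members rising, and chondrocyte markers from 4.45 to 10.64 up to 7.55 to 83.7, with 3 of 5 rising and 1 falling. Their part in the result was not tested.

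**Figure D3:**
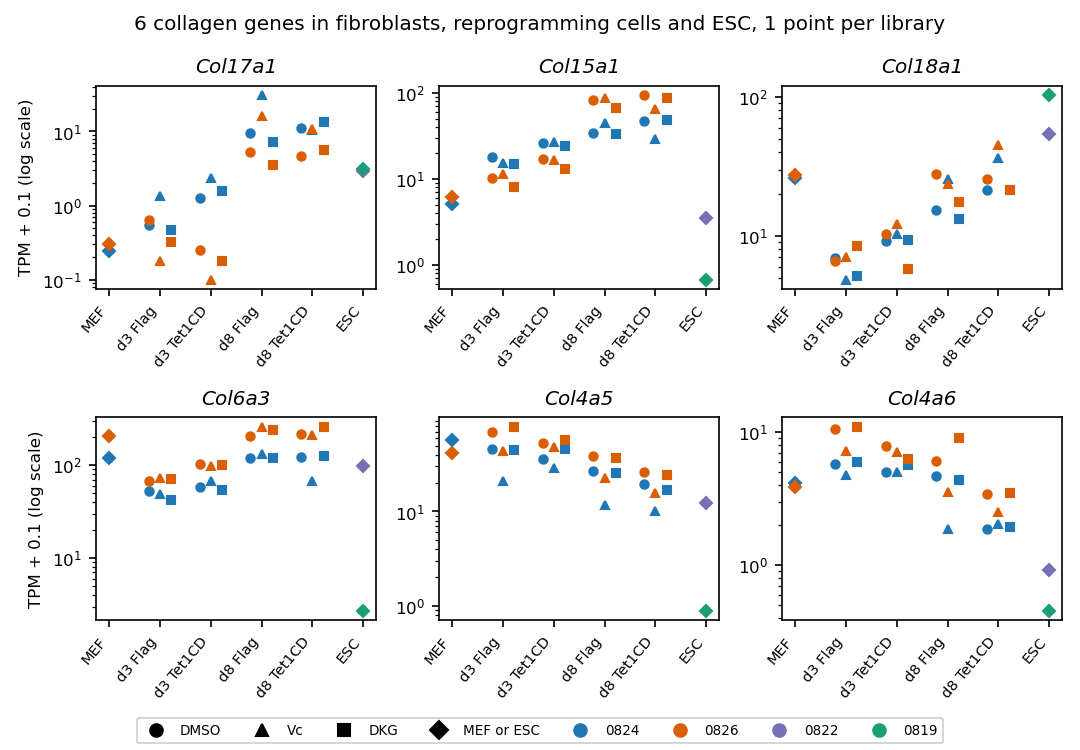
Levels of 6 collagen genes (TPM + 0.1, log scale) in each MEF, reprogramming and ESC library, with shape for the medium and colour for the library number. Col17a1, Col15a1 and Col18a1 sit higher in every library of day 8 than of day 3, while Col4a5 and Col4a6 were lower at day 8 within each number, virus and medium.

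Upstream sequence is shown for 3 of the 4 genes whose days did not overlap and for the pair that fell, chosen after their values were seen, as the bases before the start on build GRCm38.p6, 5′ to 3′, with annotated exon bases left out (52 for Col17a1, 18 for Col18a1 and 34 for Col4a5, next to the start). Capitals mark matches to the CCAAT box, the TATA motif TATAAA, the GC box GGGCGG and the AP-1 motif TGANTCA on either strand. Col15a1 is at chr4:47207762-47208011 (plus strand), Col17a1 at chr19:47692095-47692292 (minus) and the upstream start of Col18a1 at chr10:77166549-77166780 (minus). Col4a5 at chrX:141475169-141475384 (plus) and Col4a6 at chrX:141474077-141474326 (minus) lie back to back.
Col15a1: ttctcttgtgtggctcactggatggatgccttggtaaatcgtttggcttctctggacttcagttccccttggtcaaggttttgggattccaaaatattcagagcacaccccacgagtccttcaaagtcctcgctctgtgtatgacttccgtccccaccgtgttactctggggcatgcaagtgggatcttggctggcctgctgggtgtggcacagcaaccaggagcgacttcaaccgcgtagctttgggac
Col17a1: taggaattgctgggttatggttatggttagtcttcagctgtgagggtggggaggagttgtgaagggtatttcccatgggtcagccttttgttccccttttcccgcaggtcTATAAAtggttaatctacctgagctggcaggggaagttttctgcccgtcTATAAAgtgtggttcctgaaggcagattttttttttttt
Col18a1: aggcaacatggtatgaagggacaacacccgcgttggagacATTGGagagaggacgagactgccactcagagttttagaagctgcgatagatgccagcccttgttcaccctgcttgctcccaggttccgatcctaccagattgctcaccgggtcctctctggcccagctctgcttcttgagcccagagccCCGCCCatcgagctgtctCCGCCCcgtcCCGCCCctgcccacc
Col4a5: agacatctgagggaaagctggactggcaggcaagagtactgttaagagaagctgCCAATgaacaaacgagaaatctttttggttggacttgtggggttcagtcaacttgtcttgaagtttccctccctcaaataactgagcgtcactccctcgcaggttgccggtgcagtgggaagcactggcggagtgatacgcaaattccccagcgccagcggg
Col4a6: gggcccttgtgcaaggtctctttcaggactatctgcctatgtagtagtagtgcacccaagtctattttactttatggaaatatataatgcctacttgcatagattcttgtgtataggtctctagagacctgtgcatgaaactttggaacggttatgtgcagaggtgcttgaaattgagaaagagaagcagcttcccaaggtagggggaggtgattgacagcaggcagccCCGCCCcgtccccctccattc

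Distances below count back from the start, the exon bases left out included. In the printed stretch Col15a1 held none of the 4 motifs. Col17a1 held TATAAA at 140 and at 91 bases before the start, and Col18a1 held CCAAT on the opposite strand at 210 bases and GGGCGG on the opposite strand 3 times between 61 and 33 bases. In the pair that fell, Col4a5 held CCAAT at 196 bases and Col4a6 GGGCGG on the opposite strand at 21 bases. The whole windows also held GGGCGG for Col4a5 and CCAAT for Col17a1, in matches that reach the exon bases left out. RefSeq's table matched 35 of the 44 genes, with 38 windows of 250 bases. Col1a1, Col2a1, Col4a3, Col5a2, Col9a3, Col12a1, Col14a1, Col22a1 and Col26a1 were not matched. GGGCGG was in 57.9% of the collagen windows against 32.7% of all 32851 windows, CCAAT in 34.2% against 33.8%, TATAAA in 13.2% against 12.4% and TGANTCA in 2.63% against 6.75%. These shares are over whole windows, exon bases included, and were not tested. The median GC content was 59% for collagen windows and 52.4% for all.

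Chains that form one trimer did not all keep their ratio. The TPM ratio of Col4a2 to Col4a1 ranged from 0.736 to 1.21 over the 31 libraries, with means of 0.841 at day 3 and 0.855 at day 8. The ratio of Col1a1 to Col1a2 was 1.31 on average in MEF, 0.613 at day 3 (0.429 to 0.758) and 0.775 at day 8 (0.656 to 0.91). The days were apart in the 0824 libraries, at 0.429 to 0.602 and then 0.722 to 0.91. In the 0826 libraries they overlapped, at 0.696 to 0.758 and then 0.656 to 0.813. No reprogramming library reached 1. The ratio of Col6a2 to Col6a1 was 0.6 in MEF, 0.298 at day 3 (0.211 to 0.408) and 0.546 at day 8 (0.437 to 0.663), with no overlap between the days. That of Col6a3 to Col6a1 averaged 0.224 at day 3 and 0.572 at day 8.

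With Vc in place of DMSO, several fibrillar chains and the type IV chain Col4a5 read lower at both days. Col11a1, the type XI chain that nucleates thin fibrils, is the clearest. At day 8 its DMSO libraries (Flag 0824 and 0826, then Tet1CD 0824 and 0826) stood at 18.53, 60.71, 13.44 and 38 TPM, and the Vc libraries in the same order at 10.26, 33.51, 6.07 and 17.46. At day 3 the values were 23.8, 36.62, 16.51 and 22.09 with DMSO and 13.37, 20.91, 9.24 and 19.33 with Vc. The media overlapped, but each Vc library was below the DMSO library of its own number and virus. Col4a5 at day 8 went likewise from 26.94, 38.56, 19.34 and 25.89 TPM to 11.72, 22.34, 9.92 and 15.44. Col3a1 went from 157.9, 542.8, 182.6 and 544.2 TPM to 109, 345.4, 144.8 and 456.4, and Col1a2 from 441.5, 880.9, 442 and 682.2 to 308.3, 598.6, 260.8 and 525.9. Over both days 7 genes were lower with Vc in 8 of 8 such pairs, namely Col1a2, Col3a1, Col4a5, Col5a1, Col11a1, Col11a2 and Col12a1, and none was higher in 8 of 8, where 2.7% of all tested genes were lower and 2.61% higher in 8 of 8. Without pairing, 0 of 41 genes separated the media in CPM at day 3 (0.986% of all tested genes higher and 1.35% lower). At day 8 only Col25a1 did, as lower (1.54% and 1.23%).

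Whether these differences passed a test depended on the fit. In the 28-library fit edgeR called 0 of 41 at day 3 (0.121% of all tested genes higher and 0% lower) and 0 at day 8 (0.181% and 0.0201%). At an unadjusted p under 0.05 it had 1 and 0, and DESeq2 and limma also called 0 at either day. The count stayed at 0 at both days with the block alone, where 0.55% of all tested genes were higher and 0.0738% lower at day 3 and 1.13% and 0.295% at day 8. It also stayed at 0 with the ESC pair left out alone (0.174% and 0% at day 3, 0.306% and 0.0626% at day 8). With both changes, 5 of 40 genes were lower and 1 higher at day 3 (0.849% and 1.64% of all tested genes), and 12 were lower and 3 higher at day 8 (2.93% and 4.61%). In that fit Col11a1 differed by -0.71 ± 0.12 at day 3 (adjusted p = 0.00154) and -0.98 ± 0.12 at day 8 (3.17e-05), and Col4a5 by -0.52 ± 0.1 (0.00403) and -0.85 ± 0.11 (5.54e-05). Col5a1, Col3a1 and Col12a1 were lower at both days too, by -0.54, -0.43 and -0.38 at day 3 and by -0.62, -0.49 and -0.49 at day 8. At day 8 Col8a1 (-0.62 ± 0.09), Col1a2 (-0.53 ± 0.09), Col1a1 (-0.43, adjusted p = 0.0343), Col4a1, Col4a2, Col4a6 and Col25a1 joined them. The 3 that were higher at day 8 were Col17a1 (1.15 ± 0.2, adjusted p = 0.00122), Col6a5 (1.03, 0.00901) and Col18a1 (0.53, 0.0461), and the 1 at day 3 was Col6a5 (1.33 ± 0.28, 0.0117). In Flag cells of day 3 Col6a5 went from 3.93 and 2.72 CPM with DMSO (0824 then 0826) to 3.61 and 3.54 with Vc. In Tet1CD cells it went from 2.94 and 2.68 to 22.27 and 11.46. Col17a1 at day 8 went from 24.65 and 8.51 to 71.95 and 45.08 CPM in Flag cells. In Tet1CD cells it went from 29.56 and 9.31 to 27.38 and 20.29.

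Leaving out each of the 26 libraries from this fit gave 2 to 9 calls at day 3 and 8 to 16 at day 8. The lowest counts were 2 without the Tet1CD DMSO library 0824 of day 3, 3 without the Flag DMSO library 0824 or the Tet1CD Vc library 0826 of that day, and 8 without the Flag Vc library 0824 of day 8. Col11a1 and Col4a5 were called in 26 of 26 at both days. At day 8 Col17a1, Col3a1, Col5a1, Col1a2, Col12a1 and Col8a1 were as well. At day 3 Col5a1 was called in 23, Col6a5 in 22, Col3a1 in 20 and Col12a1 in 19. At day 8 Col6a5 was called in 25, Col4a2 in 22, Col1a1 in 21, Col25a1 in 20, Col18a1 in 12, Col4a6 in 11 and Col4a1 in 7. In the fit of all 26, the change in the Vc difference between days was called for 0 collagen genes, with 6 at an unadjusted p under 0.05, and the difference in it between viruses for 0, with 7. Leaving out each library gave 0 for the first and 0 to 2 for the second, with 2 without the Flag Vc library 0826 of day 3. DESeq2 and limma called 0 for both. Of all tested genes, the fit of 26 called 0.0557% lower and 0.0348% higher for the first and 0.146% and 0.48% for the second, and the 28-library fit called 0% for the first and 0.148% higher and 0% lower for the second. In the fit with 15 calls, 9 of 10 pluripotency markers rose with Vc at day 8, and 2 of 12 fibroblast markers fell. The summed fibroblast level did not separate the media, at 1943, 2075, 2516 and 2460 TPM with DMSO and 2166, 1928, 2302 and 3208 with Vc. The Tet1CD Vc library 0824 of day 8 held 1761 TPM of macrophage markers against 14.1 to 39.52 in the other libraries of that day, and without it 10 genes were called. The part of these cells in the result was not tested.

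**Figure D4:**
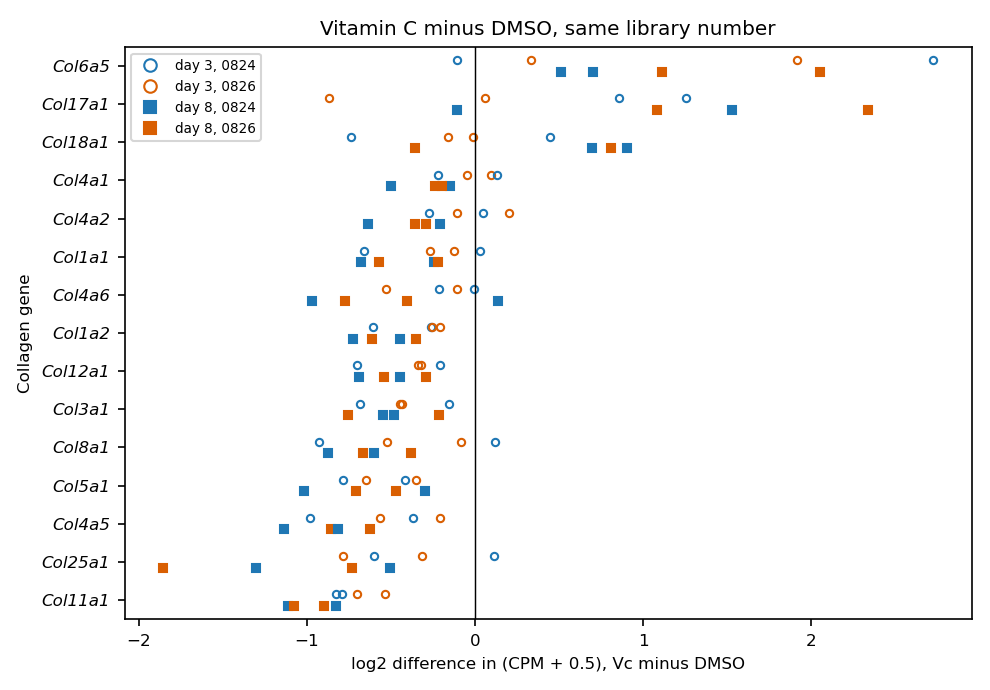
Difference between Vc and DMSO in log2(CPM + 0.5) for 15 collagen genes, 1 symbol per pair of libraries with the same number and virus, open for day 3 and filled for day 8. Col11a1, Col4a5, Col5a1, Col3a1, Col12a1 and Col1a2 lie left of 0 in 8 of 8 pairs, and Col17a1, Col18a1 and Col6a5 lie mostly to the right at day 8.

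The window upstream of Col3a1 at chr1:45311288-45311537 (plus strand, GRCm38.p6, RefSeq) is printed as that of an abundant chain among those lower with Vc. It held TATAAA at 117 bases before the start, in capitals. It held 0 CpG sites, where the median was 9.5 over the collagen windows and 6 over all windows. In this it was unlike other chains lower with Vc in 8 of 8 pairs. Their whole windows held 28 CpG sites for Col5a1, 14 for Col11a2, 11 for Col1a2, 10 for Col4a5 and 7 for Col11a1. Col12a1 was not matched.
Col3a1: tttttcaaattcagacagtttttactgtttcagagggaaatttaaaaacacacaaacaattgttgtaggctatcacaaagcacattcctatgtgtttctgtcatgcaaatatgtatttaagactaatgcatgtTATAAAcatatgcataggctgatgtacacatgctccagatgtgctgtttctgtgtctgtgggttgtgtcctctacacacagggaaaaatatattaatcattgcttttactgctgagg

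With DKG the collagen genes did not separate from DMSO. No collagen gene was higher or lower in 8 of 8 pairs, where 0.557% and 1.15% of all tested genes were. edgeR called 0 of 41, where it called 0% of all tested genes, and 0 collagen genes had an unadjusted p under 0.05 in the 28-library fit or in the fit with the block and without the ESC pair. DESeq2 and limma called 0 as well. The median log2 difference was -0.06 over the 41 and 0.00 over all tested genes. For Col1a1 at day 8 the DMSO libraries stood at 338.5, 701.4, 348.2 and 513.2 TPM and those with DKG at 335.4, 553.3, 309.3 and 429.0, ranges that overlapped.

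The Tet1CD virus went with higher levels of many chains at day 3 and lower levels of fewer at day 8. Col6a1 at day 3 stood at 207.9, 300, 177.1, 329.7, 212.3 and 276.2 TPM in Flag cells (DMSO, Vc and DKG, each 0824 then 0826) and at 304.5, 378.3, 484.7, 444.1, 333.6 and 361.5 in Tet1CD cells. At day 8 it stood at 268.7, 392.7, 291.7, 398.1, 243.9 and 341.4 in Flag cells and at 238.7, 303.5, 213.0, 327.4, 222.8 and 301.7 in Tet1CD cells. Tet1CD was thus the higher in 6 of 6 pairs of the same number and medium at day 3 and the lower in 6 of 6 at day 8. Col6a2 did the same. At day 3 a further 11 genes were higher in 6 of 6 pairs, Col1a1, Col1a2, Col4a1, Col4a2, Col5a2 and Col12a1 among them, and Col11a1 was lower in 6 of 6, where 10.1% of all tested genes were higher and 7.81% lower. At day 8 none was higher in 6 of 6, and 10 were lower, among them Col11a1, Col4a5, Col2a1 and Col11a2, where 9.18% and 10.2% of all tested genes were.

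On average over media and days, edgeR called 0 of 41 genes in the 28-library fit, where it called 1.8% of all tested genes higher and 0.302% lower. At an unadjusted p under 0.05 it had 5, and DESeq2 and limma called 0. With the ESC pair left out alone it called 0 of 40 (2.7% higher and 0.773% lower over all tested genes). With the block alone it called 3 (5.2% higher and 3.49% lower over all tested genes). With both, 7 of 40 were higher and 6 lower (12% and 10.5%). Col11a1 was lower by a log2 difference of -0.64 (adjusted p = 1.31e-06), Col4a6 by -0.48 (0.000241) and Col4a5 by -0.33 (0.000446). Col18a1 was higher by 0.47 (adjusted p = 0.0032), Col15a1 by 0.32, Col8a1 by 0.24, Col4a1 by 0.19, Col6a5 by 0.79 and Col10a1 by 0.99, each called in 26 of 26 fits that left out 1 library. The days differed for some of these. Mean log2 differences of pairs at day 3 and day 8 were 0.58 and 0.05 for Col15a1, 0.48 and 0.01 for Col8a1, and 0.50 and -0.13 for Col4a1. Those of Col18a1 (0.43 and 0.51), Col6a5 (0.83 and 0.65) and Col10a1 (1.01 and 0.57) were above 0 at both. For Col6a5 at day 3, only 4 of 6 pairs were higher, with differences from -0.36 to 2.47. With DMSO its Tet1CD libraries stood at 2.94 and 2.68 CPM against 3.93 and 2.72 in Flag cells. With Vc they stood at 22.27 and 11.46 against 3.61 and 3.54. Col6a1 was higher by 0.18 (adjusted p = 0.043) and called in 9 of 26, and of those lower Col20a1 (-0.57) was called in 23 and Col11a2 (-0.58) in 14. Col25a1 was lower by -1.12, but by -0.40 with an adjusted p of 0.951 without the Flag Vc library 0824 of day 3. The count was 9 without that library and 18 without its 0826 partner. In this fit 8 of 12 fibroblast markers were higher with Tet1CD and 3 of 11 macrophage markers were, and their part in the result was not tested.

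The change from day 3 to day 8 differed between the viruses in the same fit. The difference was below 0 for 16 of 40 genes and above 0 for none, where 5.84% and 4.84% of all tested genes were called. It was -0.92 for Col6a1 (adjusted p = 0.000104), -0.81 for Col6a2 (5.86e-05), -0.75 for Col4a2 (0.000261), -0.63 for Col4a1 (0.000241) and -0.62 for Col1a1 (0.00691). Type VI, IV and I chains thus gained less, or lost more, from day 3 to day 8 with Tet1CD than with Flag. The 28-library fit called 0 of 41 for this difference (0.288% higher and 0.00671% lower over all tested genes), with 2 at an unadjusted p under 0.05, and DESeq2 and limma called 0. The block alone gave 0 calls (1.68% higher and 0.885% lower over all tested genes), and so did leaving out the ESC pair alone (0.842% and 0.167%). Leaving out each library of the fit with 16 calls gave 13 to 17. Of the 16, 13 were called in every such fit, while Col11a2, Col12a1 and Col4a5 were called in 10, 9 and 7 of 26. The pairs did not weigh equally: for Col6a1 at day 3 the log2 differences ran from 0.36 to 1.45, and averaged 0.88 over the 0824 pairs and 0.39 over the 0826 pairs.

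**Figure D5:**
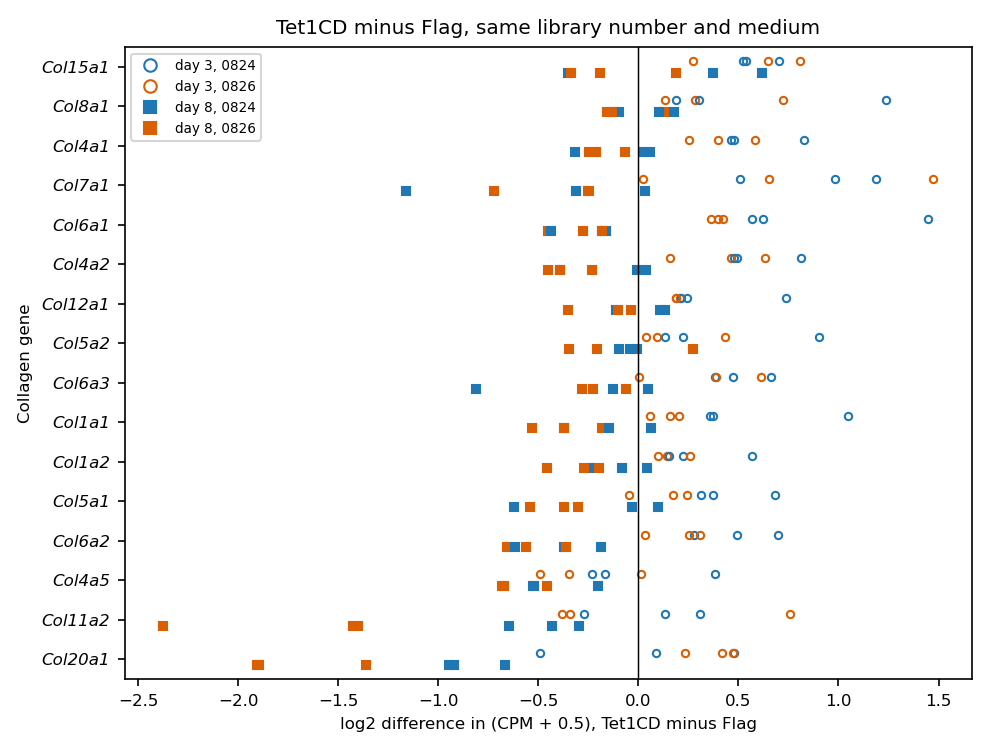
Difference between Tet1CD and Flag in log2(CPM + 0.5) for the 16 genes whose change over time differed between viruses in the fit with the block and without the ESC pair, 1 symbol per pair of the same number and medium, open for day 3 and filled for day 8. For most genes the day 3 symbols lie right of 0 and the day 8 symbols left of it or near it, as for Col6a1 with 6 of 6 pairs on each side.

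In ESC, the level of most chains depended on which library was read. The library titled 0822 held Col1a1 at 1440 TPM and Col1a2 at 1062, where the one titled 0819 held 8.96 and 5.34. In the latter Col18a1 led at 102.6 TPM, or 47.3% of its collagen TPM, ahead of the FACIT chains Col9a3 at 13.51 and Col9a2 at 12.89. Col18a1 was also above both MEF libraries in the library titled 0822, at 53.7 against 26.06 and 27.1 TPM. In the 28-library fit 6 of 41 genes were higher and 16 lower in ESC than in MEF, where 26.8% and 25.7% of all tested genes were. A fit of those 4 libraries alone called 0 of the collagen genes. Col18a1 was higher by a log2 difference of 1.53 ± 0.34 (adjusted p = 0.0013). The others higher were Col9a2 (4.64 ± 1.04), Col9a3 (2.85 ± 0.93), Col22a1, Col6a5, and Col6a4, which was at 0 counts in both MEF libraries and at 2 and 36 in ESC. Col9a3 had 4 and 2 counts in MEF and 4 and 44 in the ESC libraries titled 0822 and 0819, and Col6a5 had 2 and 1 and then 2 and 51, so that only the latter library lay above MEF for both. Without it Col18a1 and Col9a2 passed the test and Col9a3, Col6a5, Col22a1 and Col6a4 did not. Col4a5 and Col4a6 were lower by -3.15 ± 0.73 and -3.08 ± 0.61, Col2a1, the main cartilage collagen, by -3.44 ± 0.65, and Col8a1 by -3.49 ± 1.06. The count was 34 without the ESC library titled 0822, 16 without that titled 0819 and 13 without the MEF library 0826. Against the mean of day 8, 5 genes were higher and 10 lower (27.6% and 24.3% of all tested genes), and Col15a1 was the furthest below among those called, at -5.21 ± 0.75 (adjusted p = 1.87e-05). There the count was 29 without the ESC library titled 0822. The part of the fibroblast markers in these values was not tested.

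The enzymes and partners that handle collagen were counted in fixed lists. In Flag DMSO cells of day 3 against MEF, in the 28-library fit (14.8% of all tested genes higher and 13.9% lower), 16 of 24 folding and secretion genes fell and 1 rose, 7 of 14 processing and crosslinking genes fell and 1 rose, 5 of 9 receptors and 6 of 12 degradation genes fell, and 4 of 11 fibril partners fell and 1 rose. P4ha1, a catalytic subunit of the prolyl 4-hydroxylase, fell by 1.47 on the log2 scale (adjusted p = 6.07e-06), and Loxl2, a lysyl oxidase that crosslinks collagen, fell by 3.67 (0.000776). Of 16 other basement membrane genes, 4 rose and 4 fell, with Lama3, a laminin chain, up by 2.64 ± 0.43. From day 3 to day 8, in the same fit (14.4% and 10.7%), the counts were 6 up and 1 down for these basement membrane genes, 2 and 2 for folding, 4 and 2 for crosslinking, 4 and 0 for fibril partners, 4 and 0 for receptors, and 1 and 2 for degradation. The laminin chains Lama5 and Lamb3 rose by 1.44 ± 0.1 and 2.82 ± 0.25. Of 24 regulators of collagen genes, 1 rose and 6 fell from MEF to day 3, and 5 rose and 0 fell from day 3 to day 8, among them Sox9 by 1.94 ± 0.53.

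With Vc, in the fit with the block and without the ESC pair (1.64% of all tested genes higher and 0.849% lower at day 3, 4.61% and 2.93% at day 8), 2 of 24 folding genes fell at either day, and they were the prolyl 4-hydroxylase subunits. P4ha1 differed by -0.51 ± 0.1 at day 3 (adjusted p = 0.00414) and -0.66 ± 0.1 at day 8 (0.000242), and P4ha2 by -0.52 ± 0.13 (0.0395) and -0.69 ± 0.14 (0.00557). P4ha1 stood at 105.2, 130.2, 100.5 and 110.0 CPM with DMSO at day 8 and at 72.91, 77.22, 71.92 and 58.31 with Vc, with no overlap. Of all tested genes, 1.23% were lower and 1.54% higher with no overlap at that day. Of 14 crosslinking genes 2 fell at either day, Lox by -0.87 ± 0.09 (1.57e-05) and -0.89 ± 0.09 (5.27e-06) and Loxl2 by -0.41 and -0.48. Of 11 fibril partners, 6 fell and 1 rose at day 3, led by Postn (periostin) at -1.17 ± 0.15, and 3 fell at day 8. In the 28-library fit, 0 genes of the folding list were called at day 3 and 1 at day 8 (0.121% of all tested genes higher and 0% lower at day 3, 0.181% and 0.0201% at day 8). That fit called 0 of all tested genes lower at day 3, so none of Lox, Loxl2 and Postn, and 3 lower at day 8. With Tet1CD against Flag, in the fit with the block and without the ESC pair (12% higher and 10.5% lower over all tested genes), 8 fibril partners were higher and 1 lower, 5 of 12 degradation genes were higher, led by Ctsk at 1.01 ± 0.09, and 2 folding genes were higher and 3 lower. In the same fit, the difference of the day change between viruses was called below 0 for 12 of 16 basement membrane genes. It was called below 0 for 9 of 14 crosslinking genes and above 0 in neither list. Of all tested genes, 5.84% were called below 0 and 4.84% above. The 28-library fit called 0.00671% of all tested genes below 0 and 0.288% above for this difference.

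Fibroblasts kept without OKSM gave 1 library per medium, so their differences have no replicate check. With Vc, Col1a1 stood at 6624 TPM against 5228 with DMSO, and Col3a1 at 2595 against 1776. Of the 41 genes, 7 were over 2-fold higher with Vc and 2 over 2-fold lower on the scale of CPM + 0.5, where 4.65% and 3.97% of all tested genes were, and the 7 were low chains such as Col6a5, Col6a6 and Col9a2. Col11a1 stood at 116.0 against 129.7 TPM and Col4a5 at 42.12 against 52.36. P4ha1 was at 154.7 CPM with Vc and 297.2 with DMSO. With the medium labelled DKG, 1 gene was over 2-fold higher and 1 lower, where 1.47% and 1.97% of all tested genes were.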

How the data were processed

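Trizol RNA and a TruSeq kit gave the libraries, per the labels' protocols. The submitters' processing notes name Bowtie, RSEM and mm10; their versions, trimming and annotation are not given. Per the file headers, the authors deposited RSEM gene tables whose columns include the expected count, TPM and FPKM. RSEM divides reads that match several genes by its model, and as the strand setting is unknown, overlapping and antisense genes may share reads. Of 29267 gene IDs, 28756 were named from GENCODE vM21 (mm10).

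Expected counts were rounded and tested with edgeR 4.0.16 in R 4.3.3: TMM scaling, filterByExpr, quasi-likelihood tests of contrasts of group means, two-sided, Benjamini-Hochberg adjustment over all 14914 genes tested, called at an adjusted p under 0.05. The 28 libraries of the 14 groups with 2 libraries shared 1 fit. Fits without the ESC pair (26 libraries, 14368 genes, 40 of the collagen genes, Col9a2 dropping out) were added after seeing the data. The library number was tested as a block within each day because the 0824 minus 0826 differences of groups correlated at 0.356 to 0.504 within day 3 and 0.345 to 0.687 within day 8 (15 pairs of groups each), against -0.00838 to 0.178 across days. Comparisons with a common group (MEF, DMSO cells or day 8 cells) share its libraries. FPKM was not used. Levels are TPM, and ± is the standard error of the fit. Alternatives were DESeq2 1.42.0, limma 3.58.1 on log2(TPM + 1), RLE scaling, no filter, the block, the groups compared alone, and leaving out each library. The limma alternative on TPM moved the median of all genes by 0.17 in day 3 Flag DMSO cells against MEF and by -0.11 in ESC against day 8. Low counts limit precision.

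The collagen genes, the lists and the marker lists were chosen with earlier results of these data known. Named are all genes called in any comparison, the 5 highest by mean TPM in each stage, head-to-head pairs, and up to 3 genes per other list by smallest adjusted p. Sequences are RefSeq promoter windows of GRCm38.p6. The fitting script was tested on simulated data.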

Additional observations from a re-analysis of the deposited data

Results flagged for a closer look

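In 4 cases, from 3 genes, every pair of libraries moved one way in one set and the opposite way in another. The Col6a1 cases are the same difference read in the same libraries. Of all tested genes, 10.1% were higher with Tet1CD in 6 of 6 pairs at day 3 and 10.2% lower at day 8. From day 3 to day 8, 12.9% rose in 6 of 6 Flag pairs and 11.4% fell in 6 of 6 Tet1CD pairs. The share that met both conditions was not computed, so the 4 cases have no background to be read against. Tet1CD minus Flag was 0.64 for Col6a1 and 0.34 for Col6a2 at day 3 (mean log2 difference, higher in 6 of 6 pairs) and -0.28 and -0.46 at day 8 (lower in 6 of 6). Day 8 minus day 3 was 0.39 for Col6a1 and 0.31 for Col1a1 with Flag (6 of 6 higher) and -0.52 and -0.31 with Tet1CD (6 of 6 lower). The test of this difference in the 28-library edgeR fit gave an adjusted p of 1 for each of the 3 genes. In the fit without the ESC pair and with the block within each day it gave 0.000104 for Col6a1, 5.86e-05 for Col6a2 and 0.00691 for Col1a1.

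In that last fit the change over time differed between viruses for 16 genes. The log2 differences of the change (Tet1CD minus Flag) were -0.92 for Col6a1, -0.81 for Col6a2, -0.66 for Col6a3, -0.75 for Col4a2, -0.63 for Col4a1 and -0.37 for Col4a5. Among fibrillar chains they were -0.62 for Col1a1, -0.44 for Col1a2, -0.58 for Col5a1, -0.38 for Col5a2 and -1.25 for Col11a2. The rest were -1.59 for Col20a1, -1.35 for Col7a1, -0.55 for Col15a1, -0.47 for Col8a1 and -0.35 for Col12a1. Col20a1, Col7a1 and Col11a2 are low: none exceeded 25 TPM in a reprogramming library.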

How the results depend on the processing

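The 66 single-gene calls of the 28-library fit kept their direction under the alternatives tried, except that Col9a3 in ESC against day 8 turned to -0.83 (adjusted p 0.477) without the ESC library titled 0819, where it was 2.54 without that titled 0822. Counts of called genes out of 41 moved by over 1.5 times in these cases, whose cause was not tested. ESC against MEF gave 0 calls in place of 22 with only those groups in the fit, which left 4 libraries. Day 3 Flag DMSO cells against MEF gave 17 in place of 11 with no filter, 24 with only those groups, 17 with the replicate block, 21 with it within each day, 22 without the ESC pair and 27 without it and with the block. Without the ESC pair and with the block, day 8 against day 3 gave 28 in place of 18, Vc 6 at day 3 and 15 at day 8 in place of 0, Tet1CD 13 and the day change by virus 16 in place of 0. Tet1CD gave 3 with the block within each day and the ESC pair kept. The replicate block changed no other count by as much. As a share of counts in place of TPM, collagens held 3.71% in MEF, 0.714% in ESC, 0.778% at day 3 and 0.832% at day 8.

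Leaving out each of the 28 libraries from the 28-library fit gave 13 to 34 calls for ESC against MEF, 4 to 22 for day 3 against MEF, 15 to 21 for day 8 against day 3, 14 to 29 for ESC against day 8, 0 to 1 for Tet1CD, and 0 to 0 for Vc, DKG and the differences of differences. Leaving out each of the 26 from the fit without the ESC pair and with the block gave 25 to 27 for day 3 against MEF (26 in some), 26 to 31 for day 8 against day 3, 2 to 9 for Vc at day 3 (7 in 5 fits) and 8 to 16 at day 8 (12 in 8 fits), 9 to 18 for Tet1CD (12 in 9 fits), 13 to 17 for the day change by virus, 0 to 2 for Vc by virus, and 0 to 0 for DKG and for Vc by day. Where a group keeps 1 library, that library is assumed to vary like the others. Of single genes called in the 28-library fit, 2 lost their call with DESeq2, 10 with limma, 2 with no filter and 22 with only the groups compared. Genes called only in the fit without the ESC pair and with the block were followed by leaving out libraries, and not one by one under the other alternatives.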
